A study of Mus musculus with 9 samples.

Results

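Interferon-stimulated genes were examined in cultured mouse spermatogonial stem cells (SSCs) treated to delete Prmt5, the gene of the arginine methyltransferase PRMT5. The 40 genes were the rows of the count table whose symbol is on a list of interferon-stimulated and antiviral genes, out of 53801 genes in the table. All 40 were among the 22452 genes that had enough counts to be tested. The data were 9 paired-end mRNA libraries from an SSC line, 3 in each of 3 groups.

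The cells carried Prmt5 flox/flox and Rosa26-CreERT2, a Cre recombinase that 4-hydroxytamoxifen (4OHT) activates in every cell type that uses the Rosa26 locus, so in every group the knockout was induced in culture with 1 µM 4OHT. The 4OHT group had no further construct in its label. The MU and OE labels were read as the knockout cells that received catalytically dead PRMT5 and wild-type PRMT5, respectively, by lentivirus, which is a reading of the abbreviations with the study's methods. No ethanol-treated group and no group with an empty virus was analysed here, so in a comparison with 4OHT the construct and its delivery cannot be told apart. The study grew SSCs on a feeder layer of mouse embryonic fibroblasts in its growth assays. The sources do not state whether the 3 libraries of a group came from separate cultures, so the p-values measure the spread between these libraries, which may be technical.

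Interferons are secreted proteins that cells release when they sense viral nucleic acid. Type I interferons bind IFNAR1 and IFNAR2, the kinases JAK1 and TYK2 are activated, and a complex that holds STAT2 and IRF9 binds the interferon-stimulated response element (ISRE) in the promoters of the target genes. Interferon gamma signals through IFNGR1, IFNGR2, JAK1 and JAK2 to the GAS element. Many target genes also have a basal level without interferon, and several encode sensors or transcription factors of the same pathway.

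Library totals ran from 78751996 to 95370711 counts in 4OHT, 192033300 to 365719548 in MU and 79941857 to 154557863 in OE. Every MU library was thus deeper than every library of 4OHT and OE. About 4 counts came from 1 read pair, and 3 read pairs corresponded to between 0.0317 and 0.158 CPM (counts scaled to the size of the library, with TMM factors). Prmt5 itself was at 31.9, 30.8 and 28.2 CPM in 4OHT, 145, 147 and 146 CPM in MU, and 1072, 1071 and 1085 CPM in OE, so the 2 construct groups differed in Prmt5 level. Reads assigned to Prmt5 in MU and OE may come from the construct. Prmt5 reads remained in 4OHT, and without an ethanol-treated group the loss of Prmt5 cannot be measured here. The germ cell markers Ddx4 and Dazl were present in every library. Dazl, the highest of 12 germ cell markers listed, was at a mean of 381, 687 and 791 CPM in 4OHT, MU and OE. The 12 markers went both ways, with 6 higher and 5 lower than 4OHT in each construct group.

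The promoters were searched for the ISRE, the element that the complex with STAT2 and IRF9 binds. RefSeq promoters of GRCm38.p6, from 250 bases before to 50 bases after the start, were at hand for 30 of the 40 genes. The ISRE letters, GAAA, any 2 bases and GAAA, on either strand (TTTC, any 2 bases and TTTC on the other), were in 18 of those 30 (60.0%), against 3.99% of all 27025 genes with a promoter in the table. The GAS letters, TTC, any 3 bases and GAA, which read the same on both strands, were in 8 of 30 (26.7%), against 9.55% of all genes. Promoters were not at hand for Dhx58, Oas2, Zbp1, Parp9, Mx2, Mx1, Ifi27, Rtp4, Usp18 and Parp14. The windows below are shown because they belong to genes whose levels are described next, some higher with the constructs, some lower and some called in neither comparison. They are written 5′ to 3′ on the strand of the gene, with the ISRE letters in capitals and the build GRCm38.p6.
Igtp, chr11:58199512-58199541, + strand: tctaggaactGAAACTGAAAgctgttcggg
Irgm2, chr11:58214903-58214932, + strand: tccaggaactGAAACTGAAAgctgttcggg
Irgm1, chr11:48871428-48871457, - strand: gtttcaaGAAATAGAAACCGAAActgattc
Oas3, chr5:120777715-120777744, - strand: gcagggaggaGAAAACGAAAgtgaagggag
Ddx58, chr4:40239804-40239833, - strand: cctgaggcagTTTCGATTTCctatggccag
Ifih1, chr2:62646206-62646233, - strand: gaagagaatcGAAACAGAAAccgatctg
Ifit3, chr19:34583397-34583426, + strand: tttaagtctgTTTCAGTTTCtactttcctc
Ifit3b, chr19:34607793-34607822, + strand: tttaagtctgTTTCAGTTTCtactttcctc
Ifit1, chr19:34640775-34640823, + strand: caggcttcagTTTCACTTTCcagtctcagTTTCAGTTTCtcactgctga
Isg15, chr4:156200865-156200906, - strand: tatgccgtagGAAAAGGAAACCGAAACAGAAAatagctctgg
The 30-base windows of Ifit3 and Ifit3b were the same, and those of Igtp and Irgm2 were nearly so. The window of Ifih1 lies after the annotated start, that of Ddx58 spans it, and that of Irgm1 overlaps an annotated exon of Irgm1.

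Against 4OHT, the interferon-stimulated genes did not move together in either construct group. With MU, 10 of the 40 were higher and 18 lower at an edgeR adjusted p under 0.05, beside 29.5% higher and 26.5% lower among all genes tested (56.0% in either direction). With OE, 11 were higher and 19 lower, beside 29.9% and 27.9% of all genes (57.8% in either direction). Genes called lower thus made up a larger share of the members than of all genes, and genes called higher a similar one, which is a description with no test. At a fold of at least 1.5 on top of the p, MU had 5 genes higher and 14 lower (all genes 16.5% and 16.4%), and OE had 5 higher and 15 lower (all genes 16.9% and 18.3%). The median log2 fold change of the 40 was -0.18 in MU and -0.24 in OE, beside 0.04 and 0.02 for all genes. Both comparisons use the same 3 libraries of 4OHT, so they are given side by side and not as independent support of each other.

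Of the 40 genes, 9 were higher in both comparisons, namely Usp18, Oas1a, Oas2, Oas3, Zbp1, Ifi27, Ifih1, Igtp and Irgm2. In both comparisons 17 were lower, namely Ifit2, Ifit3, Ifit3b, Oasl2, Mx2, Ifitm3, Eif2ak2, Xaf1, Ifi35, Ddx58, Trim25, Gbp2, Irgm1, Ifi47, Parp9, Parp14 and Dtx3l. Isg15, Ifit1, Oasl1, Mx1, Rsad2, Bst2, Irf9 and Gbp3 were called in neither. The others were called in 1 comparison each, Dhx58 and Irf7 higher and Rtp4 and Ifi44 lower in OE, Stat2 higher and Samd9l lower in MU, and no gene was called in opposite directions. The share of all genes called in both comparisons was not counted. Because the libraries of 4OHT are shared, calls in the same direction are favoured for any gene, so these joint counts are not a trait of the members. The groups did not overlap for 10 higher and 19 lower genes in MU (all genes 33.8% and 30.1%, 63.9% together), and for 9 higher and 20 lower in OE (all genes 31.5% and 30.1%, 61.6% together). Summed over the 40 genes, the level was 930 to 981 CPM in 4OHT, 740 to 751 in MU and 712 to 744 in OE.

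**Figure D1:**
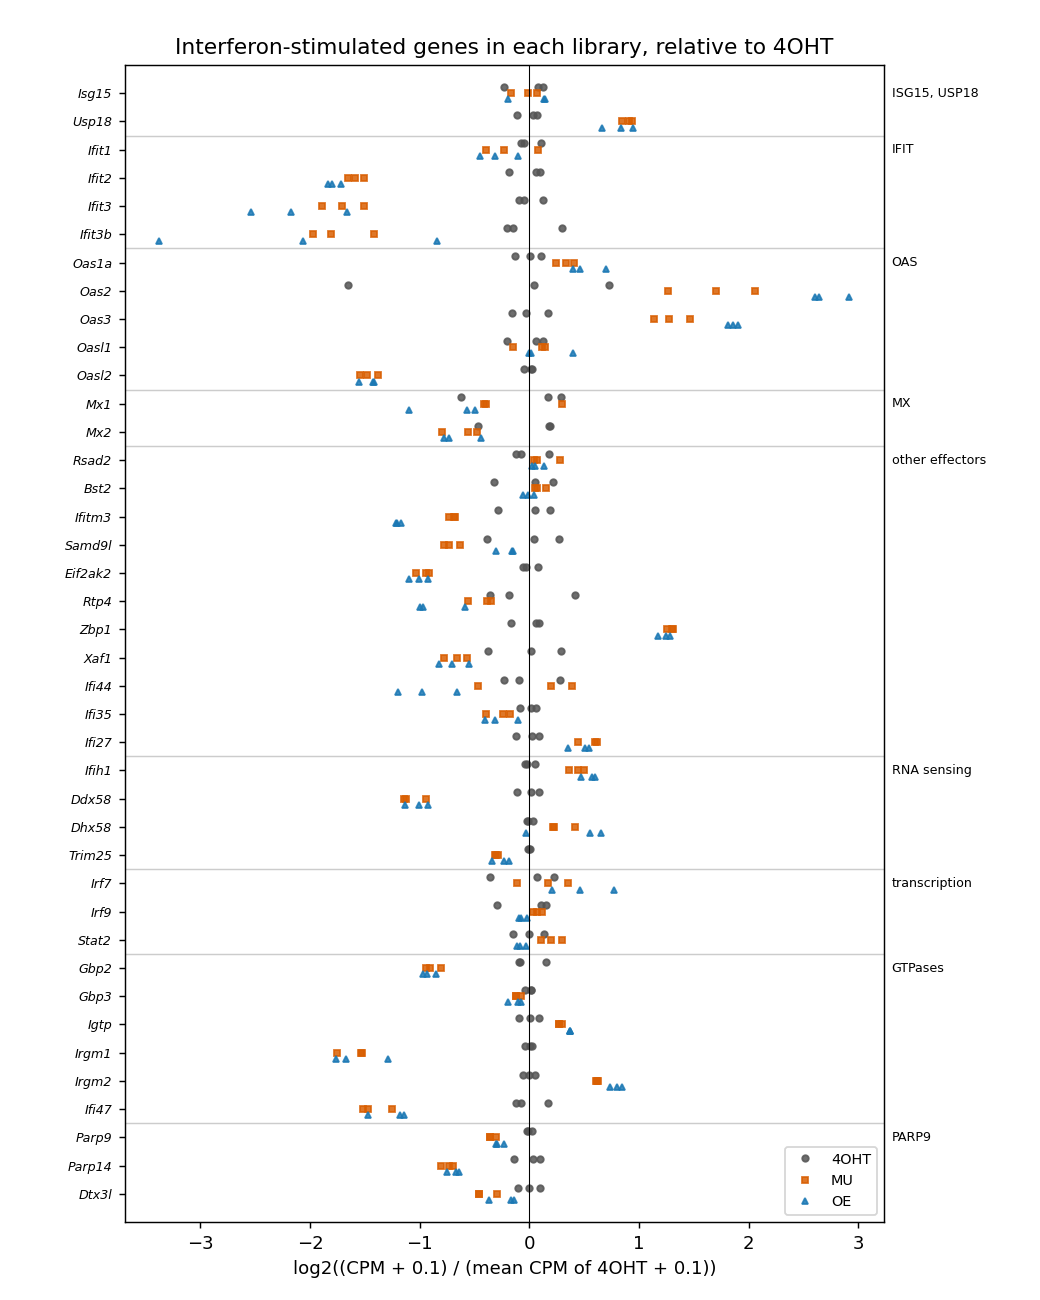
Level of each of the 40 genes in each of 9 libraries as log2 of CPM + 0.1 over the mean CPM + 0.1 of the 3 libraries of 4OHT, grouped by role; circles are 4OHT, squares MU and triangles OE. Genes of 1 role fall on both sides of 0, for example Oas3 on the right and Oasl2 on the left, and the squares and triangles of most genes lie close together.

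In these bulk libraries, fewer cells of a type and less RNA per cell cannot be told apart. Markers of other cell types moved between the same groups. The 15 leukocyte markers were all higher in both construct groups than in 4OHT, with none at 0, and their summed level was 186 to 199 CPM in 4OHT, 1181 to 1218 in MU and 2283 to 2406 in OE (Lyz2, the lysozyme of macrophages and neutrophils, was highest of them). Of the 15 fibroblast markers, 14 were lower and 1 (Dcn) higher in MU and all 15 lower in OE, and their sum was 5872 to 6791 CPM in 4OHT, 3922 to 3948 in MU and 2987 to 3054 in OE, with Col1a2 highest. The 12 germ cell markers had 6 higher and 5 lower genes in each comparison, with sums of 1937 to 1997, 2595 to 2682 and 2839 to 2887 CPM. Of 8 Sertoli and Leydig cell markers, 2 were higher in each comparison and 1 (MU) or 2 (OE) lower, with sums of 19.8 to 29.9 CPM, Sox9 highest and Hsd3b1 at 0 throughout. The 5 endothelial markers summed to 13.6 to 17.8 CPM with Pecam1 highest, 1 higher and 2 (MU) or 1 (OE) lower. The 6 lymphocyte and plasmacytoid dendritic cell markers summed to 1.37 to 4.56 CPM with Cd79a highest and Ncr1 at 0, 2 higher and 1 lower in each comparison. The part of these cells in the levels of the interferon-stimulated genes was not tested.

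**Figure D2:**
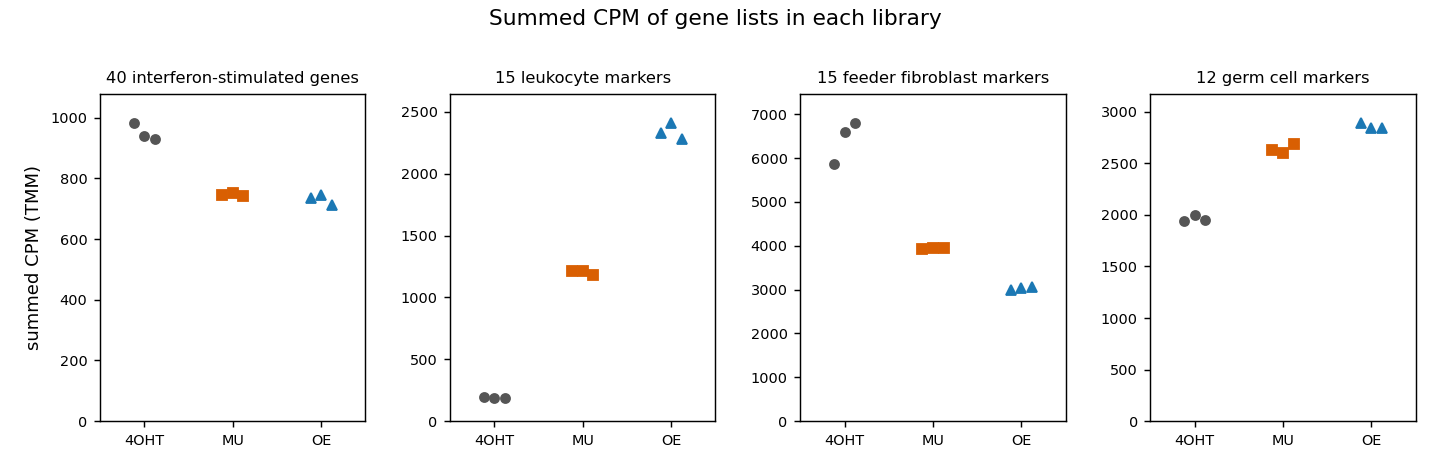
Summed CPM of the 40 interferon-stimulated genes and of 3 marker lists in each of 9 libraries, with each axis starting at 0. The leukocyte sum is lowest in 4OHT and highest in OE, the fibroblast sum runs the other way, and the interferon-stimulated genes sum to 712 to 981 CPM.

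Ligands were the least expressed part of the pathway. Of 21 interferon genes listed, 15 had no count in any library, among them Ifnb1 and all 13 Ifna genes listed, and none of the 21 passed the filter on low counts. Their summed level was at most 0.145 CPM in any library. That value, in 4OHT replicate 3, compares with 0.134 CPM for 3 read pairs in the same library, and the sum of 0.116 CPM in MU replicate 2 with 0.0317 CPM. Interferon of other sources, such as the medium, is not measured by these counts.

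Of the 6 receptor genes, Ifnar1 was not called in either comparison, at 121, 123 and 148 CPM in 4OHT, 123, 125 and 125 in MU, and 132, 128 and 125 in OE. Its partner Ifnar2 was lower in both, at 36.4, 37.1 and 32.9 CPM in 4OHT, 19.9, 19.8 and 18.6 in MU, and 17.9, 20.9 and 17.2 in OE, with no overlap. The difference was -0.87 ± 0.08 (SE) log2 in MU and -0.93 ± 0.08 in OE (edgeR adjusted p 5.47e-07 and 2.85e-07). The 2 chains of the gamma receptor were lower as well, Ifngr1 with -0.31 and -0.38 log2 and Ifngr2 with -0.59 and -0.67 in MU and OE. Il10rb, which pairs with the lambda receptor, was lower, at -0.42 and -0.53, while the lambda receptor Ifnlr1 was higher by 0.46 and 0.53.

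The signalling genes were called in both directions. The kinase Jak1 was lower in both, at 475, 469 and 512 CPM in 4OHT, 349, 348 and 345 in MU, and 357, 354 and 355 in OE, with log2 differences of -0.48 and -0.45. Tyk2 was higher by 0.59 and 0.74 and Irf1, a transcription factor induced by interferon gamma, by 0.43 and 0.44. Jak2 was 0.18 higher in MU (edgeR adjusted p 0.00994) and 0.10 in OE, which was not called. Irf8, a factor of myeloid cells named outside the fixed rule, was 1.22 higher in MU and 1.24 in OE. Its mean was 25.4, 59.2 and 60.0 CPM in 4OHT, MU and OE. The part of leukocytes in its level was not tested.

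Among the members, the transcription factors had few calls. Stat2, a subunit of the ISRE-binding complex, was at 33.3, 36.9 and 40.6 CPM in 4OHT, 45.6, 42.5 and 39.8 in MU, and 34.1, 34.8 and 36.2 in OE, and MU and 4OHT overlapped. It was called higher in MU at 0.21 ± 0.07 log2 (edgeR adjusted p 0.0307), a call that was lost without 4OHT replicate 1 (0.125 log2, adjusted p 0.161), 4OHT replicate 2 (0.054), MU replicate 1 (0.136) or MU replicate 2 (0.091). Irf9, the DNA-binding subunit of that complex, was at 15.7, 21.5 and 20.8 CPM in 4OHT and 18.1 to 20.9 in the other libraries, and was called in neither comparison. Without 4OHT replicate 1 it was called lower in OE, at -0.21 log2 (adjusted p 0.0205). Irf7, which drives the Ifna genes, was at 2.4, 1.76 and 2.68 CPM in 4OHT and 2.65, 3.17 and 3.96 in OE, with overlap. Its difference of 0.52 ± 0.21 in OE (adjusted p 0.0453) was not called with a replicate block (adjusted p 0.0579), nor without 4OHT replicate 1 (0.0751), 4OHT replicate 2 (0.175), OE replicate 2 (0.0696) or OE replicate 3 (0.339 log2, adjusted p 0.228).

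The RNA sensors separated. Ddx58 encodes RIG-I, which binds short RNA with a 5′ triphosphate, and it was at 22.4, 20.5 and 23.5 CPM in 4OHT, 11.5, 10.1 and 9.97 in MU, and 11.6, 10.01 and 10.9 in OE. All construct libraries lay below all libraries of 4OHT, with differences of -1.08 ± 0.09 and -1.03 ± 0.09 log2 (edgeR adjusted p 1.9e-07 and 3.02e-07). Ifih1 encodes MDA5, which binds long double-stranded RNA, and was at 12.2, 12.3 and 13.0 CPM in 4OHT, 17.1, 16.1 and 17.8 in MU, and 17.4, 19.0 and 18.6 in OE. It was higher by 0.44 and 0.55 log2 with no overlap. The log2 ratio of Ddx58 to Ifih1 was 0.73 to 0.88 in 4OHT and between -0.92 and -0.57 in the 6 construct libraries. In every pair given as a ratio, here and below, the first gene was called lower and the other was not. The fall of each ratio thus restates those calls and is no separate result. Both promoters hold the ISRE letters shown above. Trim25, the ubiquitin ligase that acts on RIG-I, was lower, at -0.30 and -0.25, from 144 to 146 CPM in 4OHT to 117 to 119 in MU and 115 to 128 in OE.

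Dhx58 encodes LGP2, a relative of RIG-I without its signalling domain. It was at 6.18, 6.16 and 6.4 CPM in 4OHT, 8.38, 7.32 and 7.28 in MU, and 6.1, 9.86 and 9.22 in OE. It was called in OE (0.43 ± 0.15 log2, edgeR adjusted p 0.0268) and not in MU (0.29 ± 0.15, adjusted p 0.116), and OE overlapped 4OHT. The OE call was lost without 4OHT replicate 1 (adjusted p 0.0695), 4OHT replicate 2 (0.0692), OE replicate 2 (0.125) or OE replicate 3 (0.118). Genes of a separate nucleic acid sensing list were also called in both directions. Irf3, which switches on interferon genes after sensing, was higher by 0.27 and 0.29, and its upstream adaptor Mavs was lower, at -0.23 and -0.20.

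The OAS family makes 2′-5′ oligoadenylates when it binds double-stranded RNA. Of its 5 members here, Oas1a, Oas2 and Oas3 were higher in both comparisons, Oasl2 was lower and Oasl1 was not called. Oas3 was at 1.66, 1.3 and 1.43 CPM in 4OHT, 3.34, 3.67 and 4.21 in MU, and 5.59, 5.41 and 5.77 in OE, so that the 3 groups did not overlap. It was higher by 1.36 ± 0.15 log2 in MU and 1.93 ± 0.15 in OE (edgeR adjusted p 2.7e-06 and 7.61e-08). Oas2 was barely detected in 4OHT, at 0, 0.418 and 0.223 CPM, where 0 allows up to 0.158 CPM in that library. It was at 1.21, 0.925 and 0.656 CPM in MU and 2.28, 1.86 and 1.81 in OE, with differences of 2.09 ± 0.61 and 3.18 ± 0.62 log2. These calls held whichever 1 library was left out, while the size moved, to 1.52 (MU) and 2.61 (OE) without 4OHT replicate 1 and to 2.99 and 4.08 without 4OHT replicate 2, and DESeq2 did not call Oas2 in MU (adjusted p 0.0561). Oas1a was at 6.7, 7.36 and 7.9 CPM in 4OHT, 8.71, 9.26 and 9.75 in MU, and 9.7, 10.1 and 11.97 in OE. It was higher by 0.34 and 0.54, and the MU call was lost without 4OHT replicate 1 (adjusted p 0.0748), MU replicate 2 (0.0526) or MU replicate 3 (0.0814). Stretches of 75 bases shared with Oas1g make up 47.6% of the longest Oas1a transcript, so reads could be divided between them and its level is uncertain.

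The OAS-like genes were not higher. Oasl2 was at 76.6, 73.1 and 76.9 CPM in 4OHT, 28.9, 25.9 and 26.9 in MU, and 25.7, 28.1 and 28.2 in OE, which is -1.47 ± 0.06 log2 in each comparison with no overlap (edgeR adjusted p 1.93e-10 and 1.6e-10). Its neighbour Oasl1, a translational repressor of Irf7 mRNA, was at 5.23 to 6.59 CPM in 4OHT and 5.43 to 7.97 in the other libraries, and was called in neither. The log2 ratio of Oasl2 to Oas1a went from 3.28 to 3.52 in 4OHT to between 1.24 and 1.73 in the construct libraries. The ratio restates their opposite calls. Oas1a, Oas2 and Oas3 lie within 177189 bases of chromosome 5, and Oasl2 and Oasl1 within 40980 bases elsewhere on the same chromosome.

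The IFIT proteins bind viral RNA that lacks the methylation of host caps. Ifit2 fell from 17.7, 14.9 and 18.1 CPM in 4OHT to 5.57, 5.29 and 5.87 in MU and 4.66, 5.06 and 4.77 in OE, a difference of -1.60 ± 0.10 and -1.81 ± 0.10 log2 (edgeR adjusted p 1.16e-08 and 3.66e-09). Ifit3 was at 2.7, 2.38 and 2.31 CPM in 4OHT, 0.683, 0.592 and 0.803 in MU, and 0.468, 0.342 and 0.708 in OE, which is -1.83 and -2.26. Neither gene overlapped between 4OHT and a construct group. Ifit3b was low everywhere, at 1.17, 0.801 and 0.837 CPM in 4OHT, 0.288, 0.196 and 0.164 in MU, and 0.148, 0 and 0.478 in OE, where 0 allows up to 0.128 CPM. Its differences of -2.12 ± 0.77 and -2.09 ± 0.79 (adjusted p 0.0308 and 0.0346) were called, and the MU call was lost without any 1 of 4OHT replicates 1 and 2 and the 3 replicates of MU (adjusted p up to 0.0943), the OE call without 4OHT replicates 1 or 2 or OE replicate 1 (adjusted p up to 0.107). The OE difference was -1.52 log2 without OE replicate 2 and -3.72 without OE replicate 3. Ifit3 and Ifit3b share 41.1% and 35.7% of their 75-base stretches, so the split between them is uncertain.

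Ifit1 stood apart from the rest of the family, at 3.69, 3.3 and 3.24 CPM in 4OHT, 2.9, 3.61 and 2.57 in MU, and 2.47, 3.17 and 2.72 in OE. It was not called, with a 95% interval for the log2 difference of -0.52 to 0.18 in MU and -0.65 to 0.07 in OE. The log2 ratio of Ifit2 to Ifit1 was 2.17 to 2.49 in 4OHT and between 0.55 and 1.19 in the construct libraries. The ratio restates the lower level of Ifit2. The 4 genes lie within 99316 bases of chromosome 19, and the promoters of Ifit1, Ifit3 and Ifit3b each hold 2 ISRE matches.

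The interferon-inducible GTPases, which act in the defence against intracellular pathogens, also went both ways. Irgm1 was at 26.9, 25.9 and 26.7 CPM in 4OHT, 7.81, 9.05 and 9.14 in MU, and 10.8, 7.76 and 8.26 in OE, lower, at -1.61 ± 0.11 and -1.57 ± 0.11 log2 with no overlap. Irgm2 was at 16.1, 16.7 and 15.5 CPM in 4OHT, 24.7, 25.0 and 24.7 in MU, and 29.0, 26.9 and 28.2 in OE, higher by 0.62 ± 0.06 and 0.80 ± 0.06 (edgeR adjusted p 1.18e-06 and 8.75e-08). The log2 ratio of Irgm1 to Irgm2 was 0.63 to 0.78 in 4OHT and -1.80 to -1.43 in the construct libraries, restating their calls. Both hold ISRE letters in the promoter. Igtp, which encodes IRGM3, was higher by 0.28 and 0.37, from 23.1 to 26.1 CPM in 4OHT to 29.7 to 30.4 in MU and 31.9 in each library of OE. Igtp and Irgm2 share 162 exon bases on the same strand, so their counts are not fully independent.

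Ifi47, which lies within 235007 bases of Irgm1 on chromosome 11, was lower as Irgm1 was, at -1.43 and -1.28, at 8.41 to 10.3 CPM in 4OHT, 3.13 to 3.79 in MU and 3.24 to 4.1 in OE. Gbp2 was lower, at -0.89 and -0.92, from 44.1, 44.4 and 52.4 CPM to 24.4 to 26.8 in MU and 24.0 to 26.1 in OE. Its neighbour Gbp3, which holds 2 overlapping ISRE matches, was at 25.5 to 26.6 CPM in 4OHT and 22.9 to 24.9 in the construct libraries and was not called, with log2 differences of -0.10 and -0.12.

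**Figure D3:**
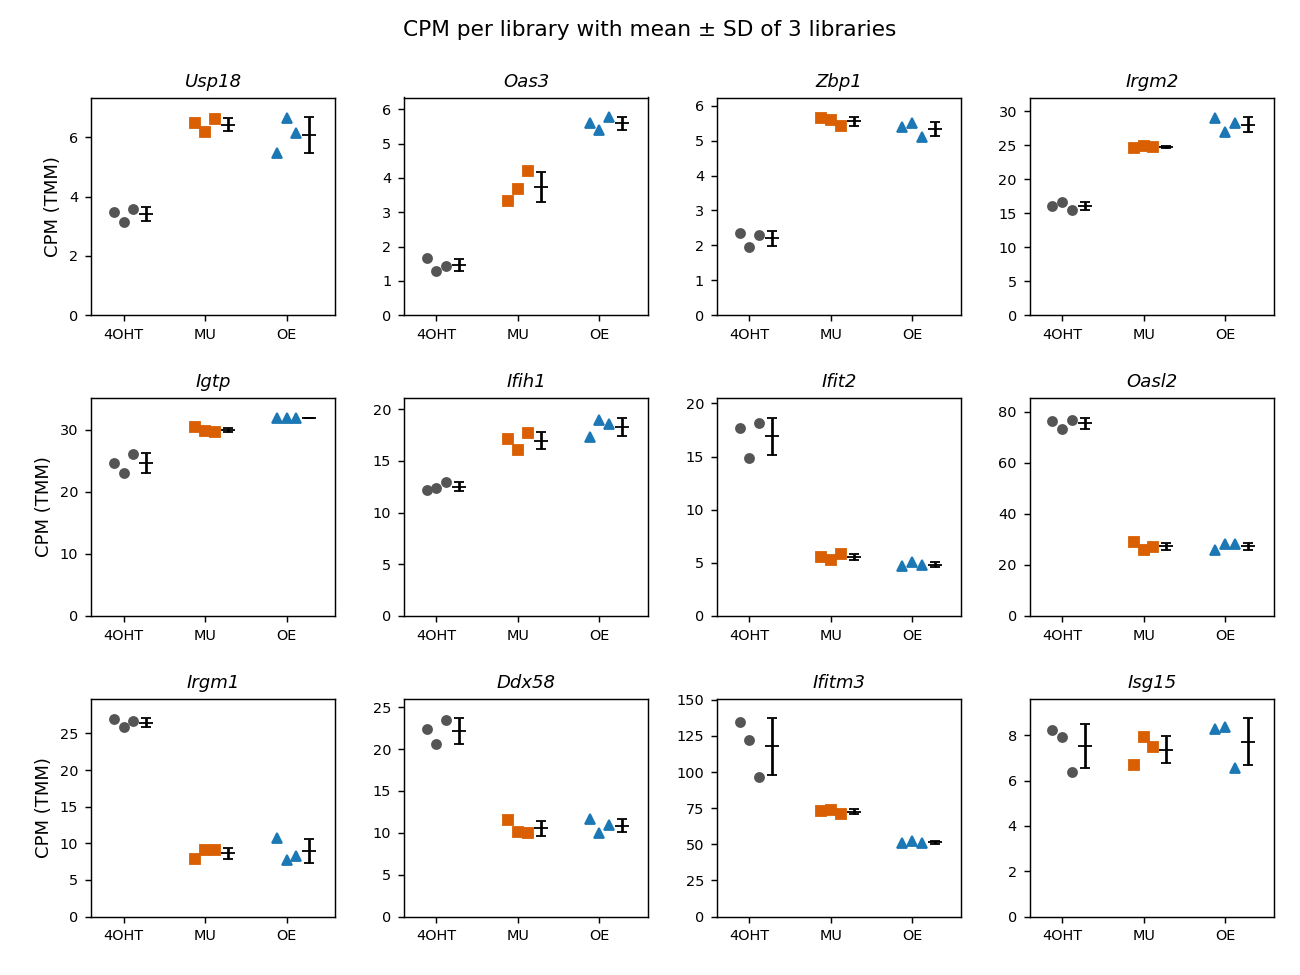
CPM of 12 genes in each library, with each axis starting at 0, points for the 3 libraries of each group and the bar for the mean ± SD. The first 6 panels hold genes that are higher in both construct groups and the next 5 genes that are lower in both; Isg15, in the last panel, overlaps in all 3 groups.

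Isg15, which encodes a ubiquitin-like protein that is attached to other proteins, was at 8.24, 7.94 and 6.39 CPM in 4OHT, 6.7, 7.9 and 7.48 in MU, and 8.27, 8.35 and 6.55 in OE. All 3 groups overlapped, and the 95% intervals of the log2 difference were -0.31 to 0.25 in MU and -0.25 to 0.32 in OE. Usp18, the protease that removes ISG15 from proteins and dampens IFNAR2 signalling, was at 3.48, 3.13 and 3.58 CPM in 4OHT, 6.48, 6.17 and 6.62 in MU, and 5.45, 6.64 and 6.13 in OE. It was higher by 0.92 ± 0.12 and 0.84 ± 0.12 log2 with no overlap (edgeR adjusted p 1.25e-05 and 3.07e-05). Uba7, the activating enzyme for ISG15 and a gene of the wider interferon-stimulated list, was at 11.7, 13.6 and 16.2 CPM in 4OHT and 3.39 to 4.41 in the construct libraries, which is -1.87 and -1.81 log2.

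Among the other effectors, Zbp1, a sensor of left-handed nucleic acid that triggers cell death, was at 2.36, 1.96 and 2.31 CPM in 4OHT, 5.65, 5.58 and 5.42 in MU, and 5.38, 5.51 and 5.12 in OE, higher by 1.33 and 1.27 log2. Ifi27, a mitochondrial protein, was higher by 0.56 and 0.47, from 38.5 to 44.6 CPM in 4OHT to 53.8 to 64.4 in the other libraries. Eif2ak2, the kinase PKR that blocks translation when it binds double-stranded RNA, was at 53.4, 48.7 and 49.7 CPM in 4OHT, 24.7, 26.7 and 26.3 in MU, and 23.6, 26.6 and 25.1 in OE, lower, at -0.96 and -1.01. Xaf1, an inhibitor of XIAP, was lower, at -0.68 and -0.70, and Ifi35, at -0.27 in both. The Ifi35 calls were lost without 4OHT replicate 2 (adjusted p 0.0853 in MU and 0.0786 in OE), MU replicate 2 (0.0949), OE replicate 2 (0.078) or OE replicate 3 (0.0865). An opposite-strand gene, Gm11626, covers 16.8% of the exons of Ifi35, and the strand setting of the counts is not given in the sources used here.

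The tetherin gene Bst2, which holds budding virus at the cell surface, was at 58.8, 52.3 and 40.5 CPM in 4OHT and 48.4 to 56.2 in the other libraries, and was called in neither comparison. Without 4OHT replicate 3 it was called lower in OE at -0.15 log2 (adjusted p 0.0398), and Samd9l likewise at -0.38 (adjusted p 0.0242). In 4OHT replicate 3, the 5 members with a longest transcript under 1500 bases lay at a median of -0.34 log2 from the mean of the other 4OHT libraries. The other 35 members lay at 0.04. By the same measure the short members lay at 0.20 and 0.08 in 4OHT replicates 1 and 2. Samd9l, an antiviral restriction factor, was at 7.75, 6.62 and 4.9 CPM in 4OHT, 3.69, 3.82 and 4.11 in MU and 5.76, 5.78 and 5.2 in OE, called lower only in MU (-0.73 ± 0.15, edgeR adjusted p 0.000872, against -0.20 ± 0.15 in OE). Rsad2, the radical SAM enzyme viperin, was at 3.99 to 5.31 CPM in all libraries and not called.

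Rtp4, a chaperone of receptors, was lower in OE (-0.90 ± 0.25, edgeR adjusted p 0.00646) and not called in MU (-0.45 ± 0.24), with 1.47 to 2.6 CPM in 4OHT. Ifi44 was at 0.725, 0.538 and 0.48 CPM in 4OHT and 0.197, 0.246 and 0.332 in OE, a call at -1.15 ± 0.39 (adjusted p 0.0215) that was lost without 4OHT replicate 1 (0.0708), OE replicate 1 (0.0692) or OE replicate 2 (0.0578). Mx1, a GTPase that blocks influenza virus, was at most 0.415 CPM in any library and not called. Mx2 was at 2.72, 4.31 and 4.33 CPM in 4OHT, 2.14, 2.54 and 2.70 in MU, and 2.17, 2.23 and 2.77 in OE. It was lower, at -0.62 and -0.66, though OE overlapped 4OHT. The MU call was lost without 4OHT replicate 2 (adjusted p 0.0744), 4OHT replicate 3 (0.0581) or MU replicate 1 (0.0658), and the OE call without 4OHT replicate 2 (0.0575).

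Parp9, Dtx3l and Parp14, which act together in ADP-ribosylation and ubiquitination after interferon, were all lower in both comparisons. Parp14 was at 59.8, 50.6 and 57.2 CPM in 4OHT, 33.6, 31.9 and 34.6 in MU, and 35.8, 35.2 and 33.2 in OE (-0.74 and -0.69 log2). Parp9 was lower, at -0.34 and -0.28 and Dtx3l at -0.40 and -0.22, and none of the 3 genes overlapped 4OHT. The OE call of Dtx3l was lost without 4OHT replicate 1 (adjusted p 0.0679), 4OHT replicate 2 (0.0632) or OE replicate 3 (0.0979). The 3 genes lie within 139732 bases of chromosome 16, and Parp9 and Dtx3l share 458 exon bases on opposite strands.

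Among 36 tested genes of a wider interferon-stimulated list, 10 were higher and 10 lower in MU and 12 higher and 10 lower in OE, which is near the shares of all genes (29.5% and 26.5% in MU, 29.9% and 27.9% in OE). Among those with a mean of at least 1 CPM, the largest higher calls in MU were of the Schlafen genes Slfn8, at 1.92 and 2.86 log2 and Slfn2, at 1.73 and 2.15, followed by Sp100 at 1.15 and 1.13. Besides Uba7, Parp10 was lower, at -0.98 and -0.92 and Phf11d at -0.94 and -1.20. Per kilobase of exon, Ifitm3 was the highest member at a mean of 174 CPM per kilobase in 4OHT, followed by Bst2 at 55.9 and Ifi27 at 28.6, and Oas2 the lowest at 0.048.

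MU and OE differed in the construct and, as given above, in Prmt5 level, so catalytic activity and construct level cannot be told apart in their comparison. Between MU and OE, read as the catalytically dead and the wild-type construct, 2 of the 40 genes were called, Ifitm3 higher and Oas3 lower in MU. Beside them, 2.12% of all genes were called higher and 1.06% lower (3.17% in either direction), and 7 members had an unadjusted p under 0.05. None of the 40 was called at a fold of at least 1.5 (all genes 0.414% and 0.659%). The groups did not overlap for 8 higher and 6 lower members, beside 13.0% and 12.8% of all genes (25.9% together). The median log2 difference was 0.00 for the members, with 20 above 0 and 20 below.

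Ifitm3, which blocks the entry of enveloped viruses, was at 134, 122 and 96.4 CPM in 4OHT, 73.2, 73.7 and 70.8 in MU, and 50.8, 52.1 and 50.8 in OE, so the 3 groups were separate. It was lower than 4OHT, at -0.70 ± 0.09 in MU and -1.20 ± 0.09 in OE, and 0.50 ± 0.09 higher in MU than in OE (edgeR adjusted p 0.00545), a call that held whichever 1 library was left out. In the same comparison 13 of 15 fibroblast markers were higher in MU, with the sums given above, and the part of those cells in Ifitm3 was not tested. Oas3 was lower in MU than in OE, at -0.58 ± 0.14 (adjusted p 0.0393), a call that was lost with a replicate block (adjusted p 0.0671) and without any 1 of the 6 libraries (adjusted p 0.0636 to 0.204). In that comparison 10 of 15 leukocyte markers were lower in MU, and their part in Oas3 was not tested.

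Samd9l and Stat2 came next by p. The log2 difference of MU and OE was -0.53 ± 0.15 for Samd9l (edgeR adjusted p 0.0918) and 0.28 ± 0.07 for Stat2 (adjusted p 0.0635), and neither was called. Ifi44 had the largest difference of the 40, 1.25 ± 0.38, with a 95% interval of 0.42 to 2.07 and an adjusted p of 0.123. For the other members the intervals were narrow enough to bound a difference in the better expressed genes, from -0.14 to 0.13 log2 for Oasl2 and from -0.09 to 0.18 for Eif2ak2, and wide for Ifit3b, from -1.69 to 1.64. Of the wider list, 2 of 36 were called, Slfn2 lower in MU at -0.42 log2 and Ifi204 higher at 0.39, the latter named after its values were seen.

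**Figure D4:**
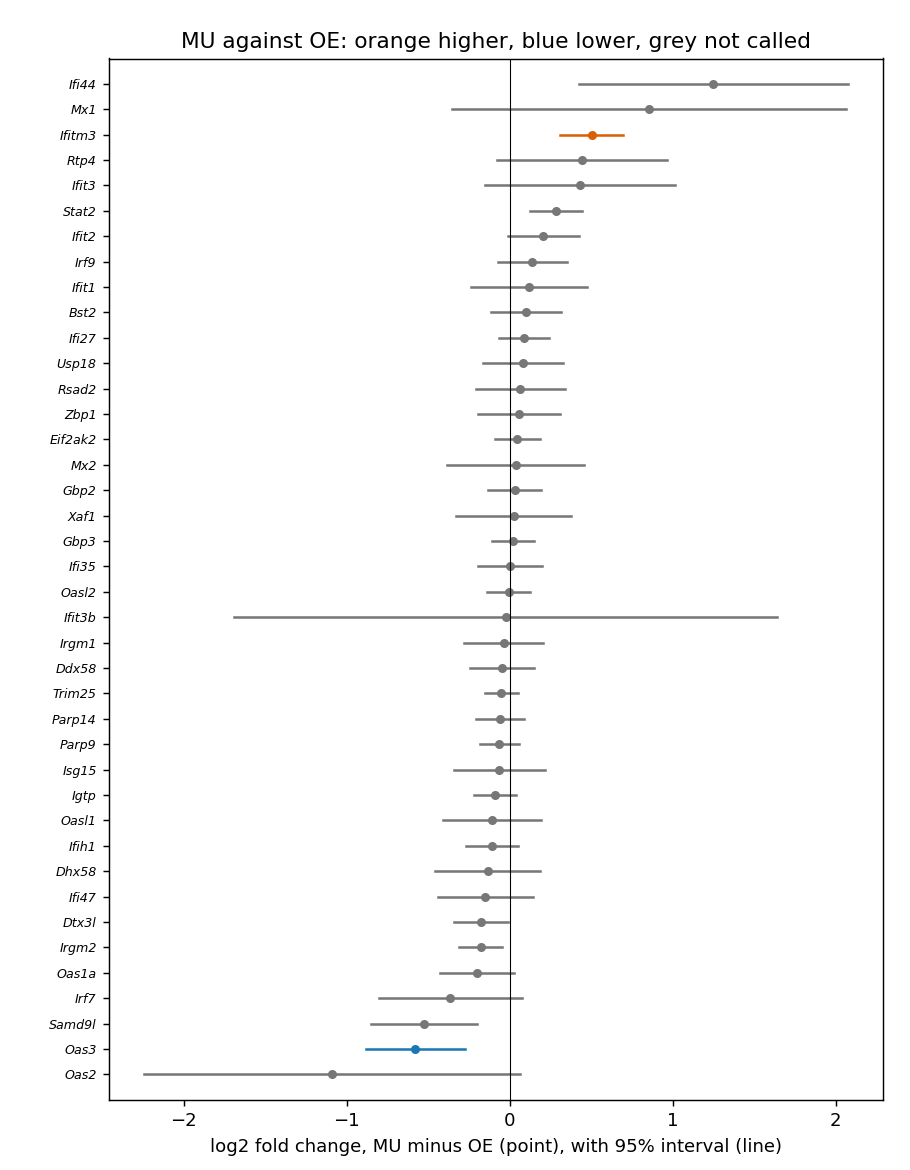
Log2 difference of MU and OE for each of the 40 genes, ordered by size, with the fitted value as a point and the 95% interval as a line; orange is called higher in MU, blue called lower and grey not called. Ifitm3 and Oas3 are the 2 called genes, and intervals of most others include 0.

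Genes with the ISRE letters were called in both directions. Against 4OHT, of the 18 genes with the letters 6 were higher, 7 lower and 5 not called in MU, and 5, 7 and 6 in OE, beside 29.5% higher and 26.5% lower among all genes in MU and 29.9% and 27.9% in OE. Of the 12 with a promoter but without the letters, 0 were higher and 8 lower in MU, and 1 and 8 in OE. The 10 members with no promoter at hand, which could not be classed, had 4 higher and 3 lower in MU, and 5 and 4 in OE. These counts are a description of these windows, and they say nothing of binding.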

How the data were processed

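Per the labels and the study's methods, the authors trimmed paired-end reads with Trimmomatic 0.39 (and BBmap), aligned them to GRCm38 with HISAT2 2.2.1 and quantified them with StringTie 2.2.1. The deposited values are counts per gene, not normalized, in 9 libraries. Counts follow the StringTie scale, in which 1 read pair is about 4 counts, so a count is not 1 fragment. The strand setting and the annotation release are not given in the sources used here. Here edgeR 4.0.16 in R 4.3.3 (filterByExpr with 10 counts and a total of 15, TMM factors, quasi-likelihood test) was fitted to all 9 libraries, with Benjamini-Hochberg adjustment over 22452 genes and a threshold of 0.05. Errors are standard errors of the log2 difference, n = 3. Alternatives (DESeq2 1.42.0, other factors, filters, counts divided by 4, a 1.5-fold test, leaving out each library, a replicate block) are given in the closing section. The test was also run on simulated counts with known changes in a small part of the genes. Far more genes differ from 4OHT in these data, so that run cannot show how the test behaves here. Deviations of same-numbered libraries over 2742 genes correlated at 0.19, 0.236 and 0.215 between OE and 4OHT, at 0.037 to 0.106 between MU and 4OHT and at -0.351 to 0.152 between MU and OE. Only OE and 4OHT were thus above 0.1 for every replicate number. The main test used the group alone, and the replicate block is given as an alternative. Gene positions and exon overlaps are from GENCODE vM21 (GRCm38), promoters from RefSeq (GRCm38.p6). The members and lists were chosen with earlier results of these data known. All 40 members are named, and pathway genes other than Irf8 and Ifi204 were named by a fixed rule. Some genes of the pathway lists are not reported here.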

Additional observations from a re-analysis of the deposited data

How the results depend on the processing

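The results were recomputed under 10 kinds of alternative. With edgeR and RLE factors, 9 genes were higher and 18 lower in MU and 10 and 19 in OE, and the log2 difference of Ifi35 between MU and OE was -0.009. With upper-quartile factors the member medians were -0.0959 (MU) and -0.1573 (OE), beside medians of all genes of 0.1217 and 0.0967, and Isg15 in MU was at 0.047, Bst2 in OE at 0.071, Irf9 in OE at 0.015 and Stat2 in OE at 0.003. DESeq2 called 1140 of all genes between MU and OE, against 712 in the edgeR test, with 2 members higher and 2 lower, and gave 0.001 for Ifit3b and -0.009 for Ifi35 between MU and OE. With no filter on low counts the medians were -0.1135 (MU against 4OHT) and 0.0368 (MU against OE), 2 members were higher and 0 lower between MU and OE, and Isg15 in MU was at 0.032, Bst2 in OE at 0.015, Oasl2 at 0.033 and Irgm1 at 0.003 between MU and OE. With at least 1 CPM in 3 libraries, 37 members were tested, 2 were higher between MU and OE, and Isg15 in OE was at -0.008 and Oasl2 between MU and OE at 0.004. With the 6 libraries of each comparison alone, 1565 genes differed between MU and OE, with 2 members higher and 3 lower. With counts divided by 4, 39 members were tested, 2 were higher between MU and OE, and Isg15 in OE was at -0.009. Against a 1.5-fold change, 4 members were higher and 9 lower in MU (5059 genes in all), 5 and 9 in OE (5645 genes), and 0 and 0 between MU and OE (34 genes). The cause of these changes was not tested, beyond the fewer or more genes that a filter lets in and the higher bar that a 1.5-fold change sets.

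With the replicate block, 10 members were higher and 18 lower in MU, 10 and 19 in OE, and 1 and 0 between MU and OE, with Bst2 in OE at 0.006 and Ifit3b between MU and OE at 0.368. The block changed no other call than those of Irf7 in OE and Oas3 between MU and OE among the members.

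Leaving out 1 library at a time gave 8 to 10 members higher and 15 to 17 lower in MU, 9 to 11 and 15 to 21 in OE, and 1 higher and 0 lower between MU and OE, where 400 to 487 genes differed in all. The member median in MU ran from -0.2169 to -0.1056. Of the members called, 8 of 10 higher and 15 of 18 lower in MU, and 9 of 11 and 14 of 19 in OE, kept the call whichever library was left out. The uncalled log2 differences that changed sign ran, in MU, from -0.14 to 0.039 for Isg15, from -0.064 to 0.118 for Oasl1, from -0.553 to 0.043 for Mx1, from -0.047 to 0.206 for Bst2, from -0.107 to 0.334 for Ifi44 and from -0.068 to 0.165 for Irf9. In OE they ran from -0.081 to 0.13 for Isg15, from -0.153 to 0.102 for Bst2 and from -0.208 to 0.024 for Irf9. Between MU and OE they ran from -0.115 to 0.002 for Ddx58, from -0.01 to 0.062 for Gbp2, from -0.015 to 0.042 for Gbp3, from -0.062 to 0.089 for Ifi35, from -0.029 to 0.226 for Ifit1, from -0.591 to 1.587 for Ifit3b, from -0.126 to 0.113 for Irgm1, from -0.034 to 0.161 for Mx2, from -0.181 to 0.034 for Oasl1, from -0.049 to 0.032 for Oasl2, from -0.015 to 0.112 for Rsad2 and from -0.042 to 0.099 for Xaf1. Depth limits Mx1, Ifit3b, Oas2 and Ifi44, whose levels lie close to that of 3 read pairs in some libraries.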
